A study of Mus musculus with 4 samples.

Results

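The proneural bHLH genes described here are the 8 genes *Atoh7*, *Neurog2*, *Neurod1*, *Neurod2*, *Neurod4*, *Neurod6*, *Olig2* and *Bhlhe22*, chosen by their symbols from a count table of 24062 mouse genes. Their RNA was measured by RNA-seq of retinas at E13.5 in 4 libraries, 2 of wildtype (WT) and 2 of *Nrf1* f/f;*Six3*-Cre embryos (Nrf1-CKO), all of a mixed C57BL/6 and 129 background. In Nrf1-CKO embryos both copies of *Nrf1*, which encodes a transcription factor of mitochondrial and metabolic genes, carry loxP sites around exon 4, and the *Six3*-Cre transgene drives the deletion in retinal progenitor cells (RPCs), starting in the central retina. Each library was made from pooled retinas of littermates, so the spread between the libraries of a genotype is a spread between pools, and cells outside the Cre domain keep the gene. The comparison asks how the transcripts of these factors differ in retinas that lack Nrf1 in RPCs.

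Proneural bHLH proteins are transcription factors that move dividing progenitors toward a neuronal fate. Many of them pair with a widely expressed E protein, and such pairs bind short DNA sites called E-boxes and can switch on Notch ligands and neuronal genes. Id proteins take up the E proteins, and several Hes and Hey proteins that Notch signaling induces repress the proneural genes. In the embryonic retina, different members of the family act in the precursors of different neurons, with ganglion cells formed first.

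Between 74577660 and 85933945 reads per library were counted on genes. Of the 8 genes, 6 had enough reads to be tested, as did 15762 genes in all. Levels are given in CPM, the reads of a gene relative to the size of its library as scaled with edgeR's TMM factors, and a gene was called when it changed at least 1.4-fold, which is 0.485 on the log2 scale, with an adjusted p of at most 0.2. The p-values given for these comparisons are from edgeR's quasi-likelihood test with Benjamini-Hochberg adjustment over all tested genes. The *Nrf1* gene itself had 9052 and 7789 reads in the WT libraries and 8594 and 8284 in the Nrf1-CKO libraries, and a count over the whole gene cannot show the loss of exon 4. RPC markers were abundant in every library, with summed levels of 5400 and 5740 CPM for 9 genes in WT and 4810 and 5270 CPM in Nrf1-CKO, while 6 forebrain markers summed to 0.925 and 0.89 CPM in WT and 0.963 and 1.22 in Nrf1-CKO, with *Nkx2-1* and *Emx1* at 0 to 8 reads per library.

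In Nrf1-CKO retinas the 6 detected proneural genes stood between 71% and 95.9% of their WT levels. *Neurod4* was the only 1 of the 6 tested genes that was called, at 71% of its WT level. *Bhlhe22* and *Atoh7* stood at 80.5% and 81.5% of WT, short of the fold limit. *Neurog2*, *Neurod1* and *Olig2* stood at 93.3%, 95.9% and 94.9%. The 1 call among 6 is 16.7%, beside 20.9% called among all tested genes, and that call was lower, as were 8.04% of all tested genes. None of the 6 was called higher in edgeR, DESeq2 or edgeR's exact test, while 12.8% of all tested genes were called higher. None of the 6 had a positive log2 fold change, beside 7898 of all 15762 tested genes. The signs of *Neurog2* and *Olig2* changed in some fits that lack a library.

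**Figure D1:**
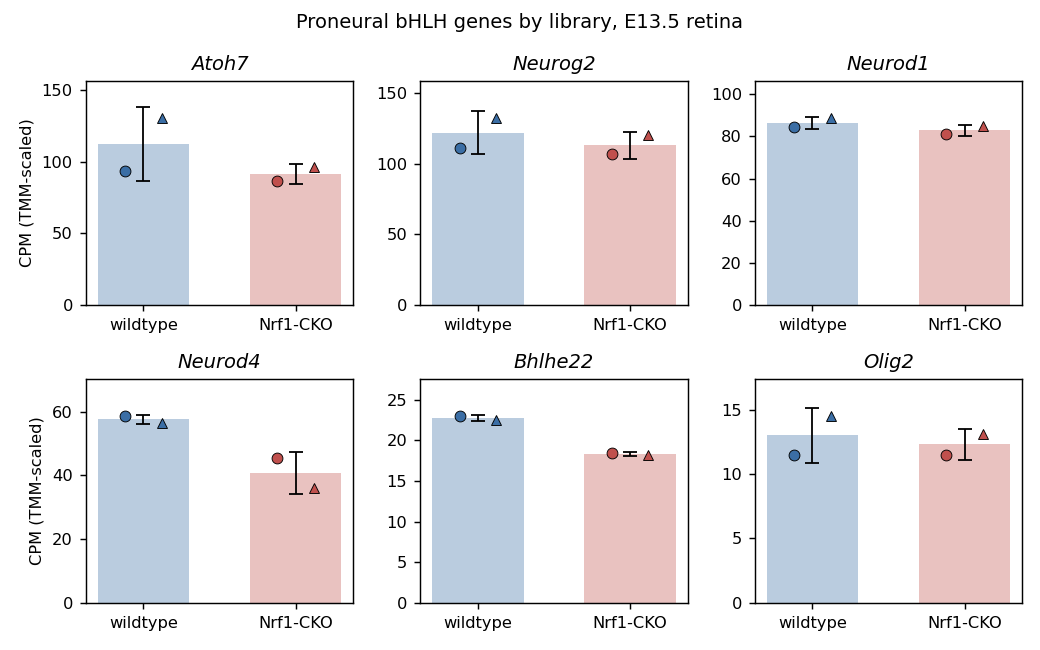
Level of the 6 tested proneural bHLH genes in each library (y axis, TMM-scaled CPM from 0; circles, replicate 1; triangles, replicate 2; bars and whiskers, mean and SD of n = 2 per genotype). The Nrf1-CKO libraries lie under both WT libraries for *Neurod4* and *Bhlhe22*, and the genotypes overlap for the other 4 genes.

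*Atoh7* is the factor that makes progenitors competent to become retinal ganglion cells. The gene has a single exon and lies on chromosome 10 of GRCm38 from 63099651 to 63101279 on the plus strand. It had 8203 and 9668 reads in the WT libraries and 7183 and 7953 in the Nrf1-CKO libraries. These correspond to 93.7 and 130 CPM in WT and to 86.5 and 96.1 CPM in Nrf1-CKO. The second Nrf1-CKO library lay above the first WT library, so the genotypes overlapped, and the WT libraries differed from each other by more than the first WT library differed from either Nrf1-CKO library. The mean was 112 ± 25.9 CPM in WT and 91.3 ± 6.83 in Nrf1-CKO (SD, n = 2). The log2 fold change came to -0.29 (standard error, SE, 0.14, 95% interval -0.61 to 0.02, adjusted p = 0.175 in edgeR). The value turned on the WT libraries. It was -0.03 without the second WT library, and -0.51 (adjusted p = 0.0272 in edgeR) without the first, where *Atoh7* was called lower. In every fit that lacks a library, 1 genotype has a single library, which is assumed to vary like the 2 of the other genotype, so calls in such fits rest on the spread of that other genotype alone.

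*Neurog2* is expressed in progenitors at the front of neurogenesis and acts upstream of *Atoh7* there. It lies on chromosome 3 from 127633135 to 127635631 on the plus strand, with 2 exons. Its reads numbered 9722 and 9809 in WT and 8856 and 9958 in Nrf1-CKO, or 111 and 132 CPM against 107 and 120 CPM. The genotypes overlapped, and the second library was the higher one in both. The log2 fold change came to -0.10 (SE 0.10, adjusted p = 0.551 in edgeR), and its 95% interval ran from -0.34 to 0.14, that is from 0.793-fold to 1.1-fold of WT. A change of 1.4-fold in either direction lay outside this interval. The sign was not stable, with 0.04 without the second WT library.

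*Olig2*, which marks progenitors close to their last division that produce cones and horizontal cells, was the lowest of the 6 genes per length. It lies on chromosome 16 from 91225457 to 91228677 on the plus strand. It had 1003 and 1074 reads in WT and 953 and 1087 in Nrf1-CKO, or 11.5 and 14.5 CPM against 11.5 and 13.1 CPM. The genotypes overlapped. The log2 fold change came to -0.07 (SE 0.15, 95% interval -0.41 to 0.26, adjusted p = 0.772 in edgeR). Here too the sign changed, to 0.11 without the second WT library and to 0.02 without the first Nrf1-CKO library.

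*Neurod1* promotes photoreceptor and amacrine cell fates. It lies on chromosome 2 from 79452521 to 79456751 on the minus strand. The gene gave 7382 and 6564 reads in WT and 6722 and 7015 in Nrf1-CKO, or 84.3 and 88.5 CPM against 80.9 and 84.8 CPM. The genotypes overlapped and no library stood apart. *Neurod1* had the smallest log2 fold change of the 6 genes, -0.06 (SE 0.08, 95% interval -0.23 to 0.11, adjusted p = 0.632 in edgeR), and 0.85-fold to 1.08-fold of WT lay within its interval. Its exons overlap those of *Cerkl* on the same strand, which had only 80 to 112 reads per library, and those of *Gm26755* on the other strand. How reads in these overlaps were counted is not given in the sources used here, so the level of *Neurod1* is uncertain to that extent.

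*Neurod4*, also known as Math3, acts with other bHLH factors in the formation of amacrine, horizontal and bipolar cells. It lies on chromosome 10 from 130268152 to 130280240 on the minus strand. Its reads numbered 5133 and 4191 in WT and 3776 and 2997 in Nrf1-CKO, or 58.6 and 56.5 CPM against 45.5 and 36.2 CPM. Both Nrf1-CKO libraries lay under both WT libraries, and they differed from each other more than the WT libraries did. The mean fell from 57.6 ± 1.49 to 40.8 ± 6.53 CPM (SD, n = 2). The log2 fold change came to -0.50 (SE 0.11, 95% interval -0.74 to -0.25, adjusted p = 0.0112 in edgeR), close to the fold limit. It was -0.34 without the second Nrf1-CKO library and -0.47 without the first WT library, and *Neurod4* was not called in either case. It was -0.67 without the first Nrf1-CKO library. The call was also lost with upper-quartile factors (-0.46) and on the deposited log2 values (-0.44, adjusted p = 0.224 in limma). In bulk RNA, fewer cells that express a gene and less RNA per cell cannot be told apart.

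*Bhlhe22*, also known as Bhlhb5, is a factor of the Olig family needed for subsets of amacrine and cone bipolar cells. It has a single exon on chromosome 3 from 18054174 to 18057517 on the plus strand. The gene had 2017 and 1667 reads in WT and 1536 and 1503 in Nrf1-CKO, or 23 and 22.5 CPM against 18.5 and 18.2 CPM. The replicates lay close together in both genotypes, and both Nrf1-CKO libraries lay under both WT libraries. The log2 fold change came to -0.31 (SE 0.10, 95% interval -0.54 to -0.09, adjusted p = 0.0525 in edgeR). It stayed between -0.33 and -0.24 under all 17 alternatives and reached the fold limit in none of them.

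*Neurod2* and *Neurod6*, paralogs best known from maturing neurons, were not detected above the floor of 3 reads, which corresponds to 0.0349 to 0.0402 CPM. *Neurod2*, on chromosome 11 from 98325415 to 98329648, had 0 reads in all 4 libraries. *Neurod6*, on chromosome 6 from 55677822 to 55681263, had 3 reads in the second WT library and 0 in the other 3. No fold is given for either gene.

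**Figure D2:**
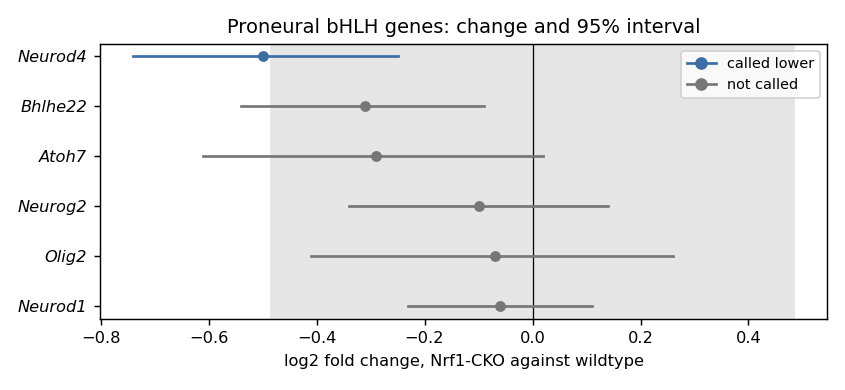
Log2 fold change of each tested gene, Nrf1-CKO against WT (x axis), with its 95% interval from the edgeR fit. The gray band marks changes under 1.4-fold, and only the point of *Neurod4*, at -0.50, lies outside it.

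The shares among these 6 genes are given beside those among all tested genes. Their median log2 fold change was -0.20, and that of all tested genes was 0.00073. An adjusted p of at most 0.2 at any fold was reached by 3 of the 6, *Neurod4*, *Bhlhe22* and *Atoh7*, beside 39.9% of all tested genes. Both Nrf1-CKO libraries lay under both WT libraries in 2 of the 6, or 33.3%, beside 31.6% of all tested genes. The interval lay within 1.4-fold in both directions for 3 of the 6, *Neurog2*, *Neurod1* and *Olig2*, beside 46.6% of all tested genes.

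Levels can be compared between genes once they are divided by the length of the exons. Per kilobase of exon, *Atoh7* had the highest level at 68.7 ± 15.8 CPM in WT and 56 ± 4.17 in Nrf1-CKO. *Neurog2* followed with 54.6 ± 6.67 and 51 ± 4.13. *Neurod1* had 31.7 ± 1.09 and 30.4 ± 1.01, and *Neurod4* had 17.2 ± 0.444 and 12.2 ± 1.97 CPM per kilobase. The order of the means was the same in both genotypes. *Bhlhe22*, at 6.8 ± 0.106 and 5.49 ± 0.0634, and *Olig2*, at 5.14 ± 0.838 and 4.86 ± 0.447 CPM per kilobase, were the lowest. The only neighbours in this order whose libraries overlapped were *Atoh7* and *Neurog2*, and they did so in both genotypes.

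**Figure D3:**
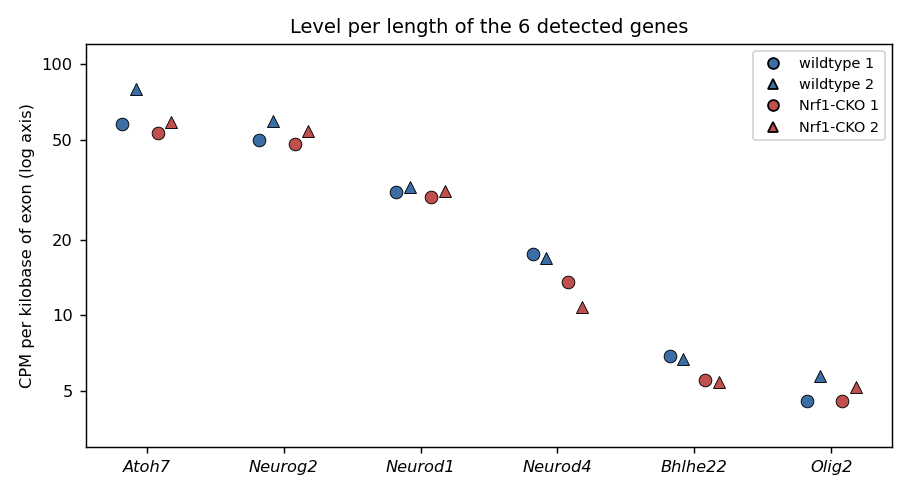
Level per kilobase of exon in each library (y axis, log scale, CPM per kilobase) for the 6 detected genes, ordered by their mean in WT. The order of the means is the same in WT and Nrf1-CKO, from *Atoh7* at 53.1 to 79.8 CPM per kilobase down to *Olig2* at 4.55 to 5.73.

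The balance between the factors can also be read within each library, where scaling between libraries plays no part. *Neurod4* made up 15.3% and 12.7% of the reads of the 8 genes in the WT libraries, and 13% and 9.82% in the Nrf1-CKO libraries. The first Nrf1-CKO library thus lay between the WT libraries. There were 0.695 and 0.638 reads of *Neurod4* for each read of *Neurod1* in WT, and 0.562 and 0.427 in Nrf1-CKO, so this ratio did not overlap between genotypes. For *Bhlhe22* the same ratio was 0.273 and 0.254 in WT and 0.229 and 0.214 in Nrf1-CKO. Its share of the reads of the 8 genes overlapped, at 6.03% and 5.06% in WT and 5.29% and 4.93% in Nrf1-CKO. *Atoh7* had 1.11 and 1.47 reads for each read of *Neurod1* in WT and 1.07 and 1.13 in Nrf1-CKO, and here the genotypes overlapped. It had 0.844 and 0.986 reads for each read of *Neurog2* in WT, and 0.811 and 0.799 in Nrf1-CKO. These pairs were chosen after the values were seen and are given as a description.

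The 8 genes share a simple structure that played no part in their choice. Each has its whole protein-coding sequence in 1 exon in the GENCODE annotation of GRCm38, with 1 exon in all for *Atoh7* and *Bhlhe22* and 2 for the other 6. Coding lengths ran from 450 bases in *Atoh7* to 1152 in *Neurod2*. RefSeq start-site windows of 300 bases, with 250 before and 50 after the start (GRCm38.p6), were found for 7 of the 8 genes, and *Bhlhe22* had none in the table. The windows were searched on both strands for the E-box CANNTG and for GCGCATGC, the core of the palindromic site that the Nrf1 protein binds. GCGCATGC was found in the window of *Neurod1* alone among the 7, and 2.71% of all 32851 windows hold it. E-boxes were found in *Atoh7* and *Neurod2* with 3 each, *Neurod6* with 2 and *Neurod1* with 1, and 72.3% of all windows hold at least 1. *Neurod4* has 2 annotated starts, and the window of the upstream one held no E-box, while that of the downstream one held 1, of the form CAGCTG, which 16.3% of all windows hold. A match describes the letters only.

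The stretches before the start of *Neurod4*, the called gene, of *Atoh7*, the ganglion cell factor, and of *Neurod1*, where both motifs adjoin, are shown 5′ to 3′ with E-boxes and GCGCATGC in capitals. They are chr10:130280255-130280504 on the minus strand for *Neurod4*, chr10:63099535-63099650 on the plus strand for *Atoh7*, and chr2:79456857-79456886 on the minus strand for *Neurod1*, all in GRCm38.
Neurod4: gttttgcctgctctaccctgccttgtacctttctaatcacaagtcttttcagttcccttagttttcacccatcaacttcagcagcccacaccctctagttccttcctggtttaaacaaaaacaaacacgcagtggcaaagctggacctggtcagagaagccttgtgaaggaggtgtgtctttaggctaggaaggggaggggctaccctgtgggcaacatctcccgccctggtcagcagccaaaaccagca
Atoh7: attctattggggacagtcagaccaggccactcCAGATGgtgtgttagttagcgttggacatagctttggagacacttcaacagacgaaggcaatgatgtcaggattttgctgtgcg
Neurod1: gggaagacCATATGGCGCATGCcggggagg
*Neurod4* has neither motif in the stretch shown, though the window of its downstream start held 1 E-box. *Neurod1* has both side by side. Whether these sites bear on the levels of the genes was not tested.

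Other bHLH genes of neurogenesis included several that fell. Of 10 such genes, 6 were tested, and 4 were called lower and none higher, in edgeR and in DESeq2. The calls make up 66.7% of those tested, beside 20.9% of all tested genes called and 8.04% called lower. All 6 log2 fold changes were negative, with a median of -1.28 and a range from -2.35 to -0.18. *Ptf1a*, which specifies amacrine and horizontal cells, fell from 541 and 516 reads in WT to 152 and 61 in Nrf1-CKO, which is -2.35 ± 0.37 on the log2 scale (standard error; adjusted p = 0.00207 in edgeR). The size of this change turned on the Nrf1-CKO libraries, with -3.15 without the first and -1.84 without the second. On the deposited log2 values it was smaller, at -1.01, and still called lower (adjusted p = 0.128 in limma). *Bhlhe23*, a relative of *Bhlhe22* that acts in rod bipolar cells, fell from 307 and 251 to 65 and 90 reads (log2 fold change -1.88, SE 0.30, adjusted p = 0.0022 in edgeR). Its change on the deposited log2 values was also smaller, at -0.65, and called lower (adjusted p = 0.0902 in limma). For both genes, both Nrf1-CKO libraries lay under both WT libraries.

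*Nhlh1* and *Nhlh2*, which are switched on in newly born neurons, had log2 fold changes of -0.88 and -1.69 (adjusted p = 0.00377 and 0.000746 in edgeR). *Nhlh2* had 4568 and 4212 reads in WT and 1791 and 1015 in Nrf1-CKO, and its log2 fold change ranged from -2.15 to -1.34 as each library was left out. *Atoh8* (-0.18) and *Neurog1* (-0.37, with 34 to 57 reads per library) were not called, and *Neurog3*, *Atoh1*, *Olig1* and *Olig3* had 0 to 13 reads per library and were not tested.

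Among 13 partners and inhibitors, 2 were called lower and none higher, in edgeR and in DESeq2, and the median log2 fold change was -0.08. The calls are 15.4% of the list, beside 20.9% called, 8.04% lower and 12.8% higher, among all tested genes. The E proteins that pair with the proneural factors had log2 fold changes of 0.20 for *Tcf3*, 0.06 for *Tcf4* and -0.08 for *Tcf12*, all under the fold limit. *Hes5*, a repressor induced by Notch, fell from 16627 and 19456 reads to 11716 and 10982 (log2 fold change -0.72, SE 0.14, adjusted p = 0.00527 in edgeR). Without the second WT library it was -0.47 and not called, nor was it on the deposited log2 values (-0.68, adjusted p = 0.237 in limma). *Id4*, an inhibitor that takes up E proteins, fell by 1.00 on the log2 scale (SE 0.18, adjusted p = 0.00413 in edgeR), and was not called on the deposited log2 values (-0.68, adjusted p = 0.216 in limma). *Hes1* and *Hes6* both had -0.29, under the fold limit. The positive values with an unadjusted p under 0.05 in edgeR were those of 2 genes, *Tcf3* and *Id3*, the latter at 0.31.

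The 15 genes listed as targets of proneural factors did not move together. In edgeR 5 were called lower and 1 higher, and the median log2 fold change was -0.26. The calls are 40% of the list, and among all tested genes 20.9% were called, 8.04% lower and 12.8% higher. The Notch ligands *Dll1* and *Dll4*, which proneural factors switch on in progenitors, had log2 fold changes of -0.10 and 0.01, and *Btg2*, an antiproliferative gene of neurogenic divisions, had -0.03. *Dll3*, a relative of these ligands that does not activate Notch on neighbouring cells, fell by 0.91 (adjusted p = 0.00214 in edgeR). The other 4 called lower had larger changes. The RNA-binding proteins *Elavl3* and *Elavl4* had -1.27 and -1.48, and the cytoskeletal genes *Tubb3* and *Dcx* had -1.26 and -1.58, with adjusted p from 9.88e-05 to 0.00158 in edgeR. *Dcx* ranged from -2.10 to -1.21 with a library left out. These 4 genes are also expressed in ganglion cells.

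*Gadd45g*, a stress and growth arrest gene that proneural factors also switch on, rose. It had 384 and 461 reads in WT and 702 and 894 in Nrf1-CKO (log2 fold change 0.86, SE 0.21, adjusted p = 0.0165 in edgeR). On the deposited log2 values it was 0.51 and not called (adjusted p = 0.256 in limma). *Insm1*, a zinc finger factor of newborn neurons, had a log2 fold change of 0.35, under the fold limit (adjusted p = 0.0748 in edgeR), and it was called higher, at 0.58, without the second WT library, where the spread is that of the Nrf1-CKO libraries alone. *Mfng*, a glycosyltransferase acting on Notch, had -0.44 (adjusted p = 0.00369 in edgeR), also under the limit.

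**Figure D4:**
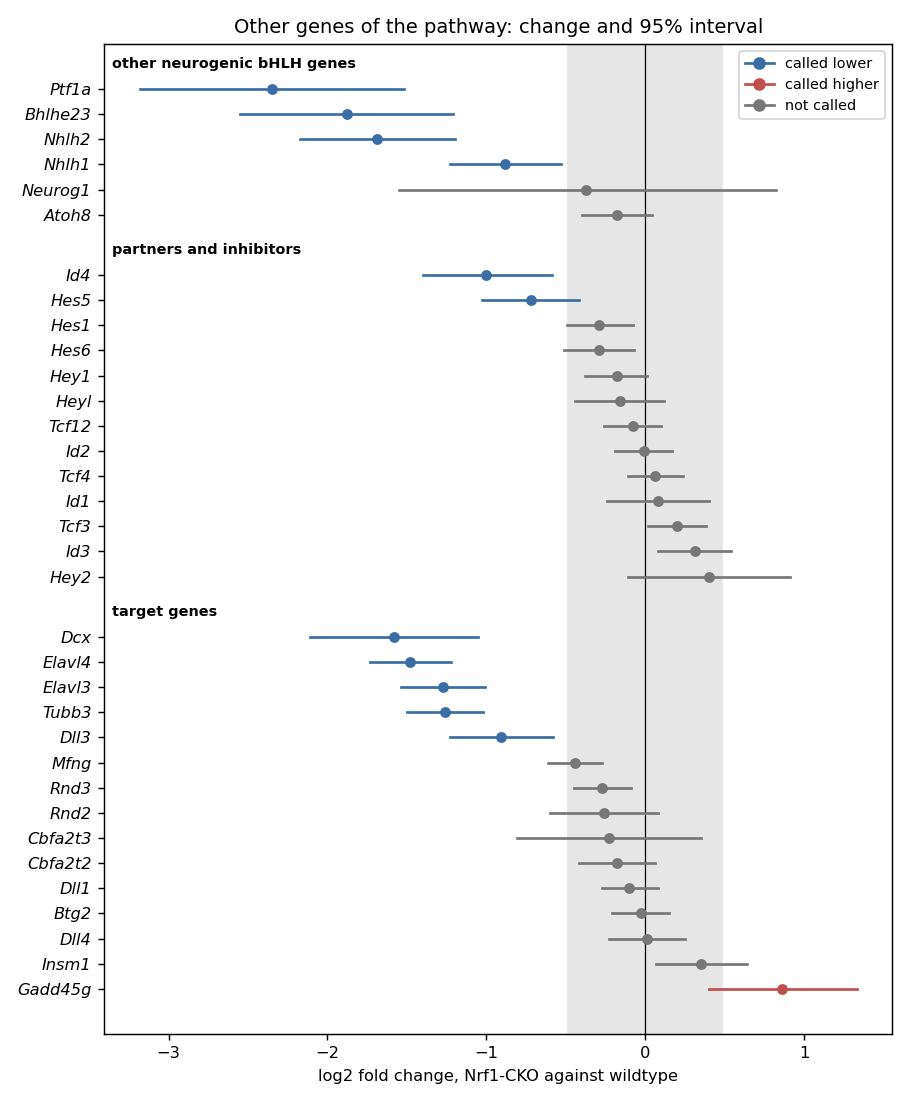
Log2 fold change with 95% interval (x axis, Nrf1-CKO against WT, edgeR) for the tested genes of 3 lists: other neurogenic bHLH genes, bHLH partners and inhibitors, and target genes. Values under 1.4-fold lie in the gray band, which holds *Dll1*, *Dll4* and the E proteins, while *Ptf1a* at -2.35 and *Gadd45g* at 0.86 lie farthest out on either side.

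Markers of the cells that these factors act in moved unequally. Of 9 RPC markers, 1 was called lower, *Fgf15*, and the list had a median log2 fold change of -0.07. All 9 ganglion cell markers were called lower, with a median of -1.73, and their summed level was 1650 and 1890 CPM in WT and 638 and 479 in Nrf1-CKO. *Pou4f2* and *Isl1*, ganglion cell factors that act after *Atoh7*, had log2 fold changes of -0.97 and -1.37. Among photoreceptor precursor markers, 2 of 5 tested were called lower, *Crx* at -0.50 and *Rxrg* at -1.19, while *Otx2* had -0.03. Of 7 amacrine and horizontal cell markers, 3 were called lower, among them *Ptf1a*, which is also on the bHLH list, and 2 higher, while *Foxn4* had -0.09.

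Several lists of markers of cells outside the neural retina also differed between the genotypes. All 8 lens markers were called higher, and their summed level was 133 and 370 CPM in WT and 7780 and 3170 in Nrf1-CKO. All 7 macrophage and microglia markers were called higher, with 71.6 and 64.4 CPM against 219 and 264. Of the pigment epithelium markers, 5 of 6 tested were called higher, with 224 and 163 CPM against 410 and 436, and *Rpe65* was at or near 0. Of 6 periocular mesenchyme markers, 5 were called higher, with 156 and 119 CPM against 238 and 207, as were 2 of 4 tested erythroid markers, with 19.1 and 23.2 CPM against 29 and 26.8. Of 6 endothelial markers, 4 were called higher and *Kdr* lower, and their summed level was 259 and 265 CPM in WT and 271 and 264 in Nrf1-CKO. None of the 3 tested forebrain markers was called in edgeR, and none had an unadjusted p under 0.05. The part of these differences in the levels of the proneural genes was not tested.

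The tested genes with the pattern most like that of *Neurod4* over the 4 libraries were *Fastkd3*, which encodes a mitochondrial RNA-binding protein, and *Lin7a*, a scaffold protein gene of cell junctions. Each differed from it by a root mean square of 0.016 in centred log2 CPM. *Fastkd3* had 1936 and 1608 reads in WT and 1440 and 1165 in Nrf1-CKO. Both had log2 fold changes of -0.48. Of 11326 genes compared, 311 lay within 0.1 of *Neurod4* by this measure, so many genes share its pattern across 4 libraries.

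**Figure D5:**
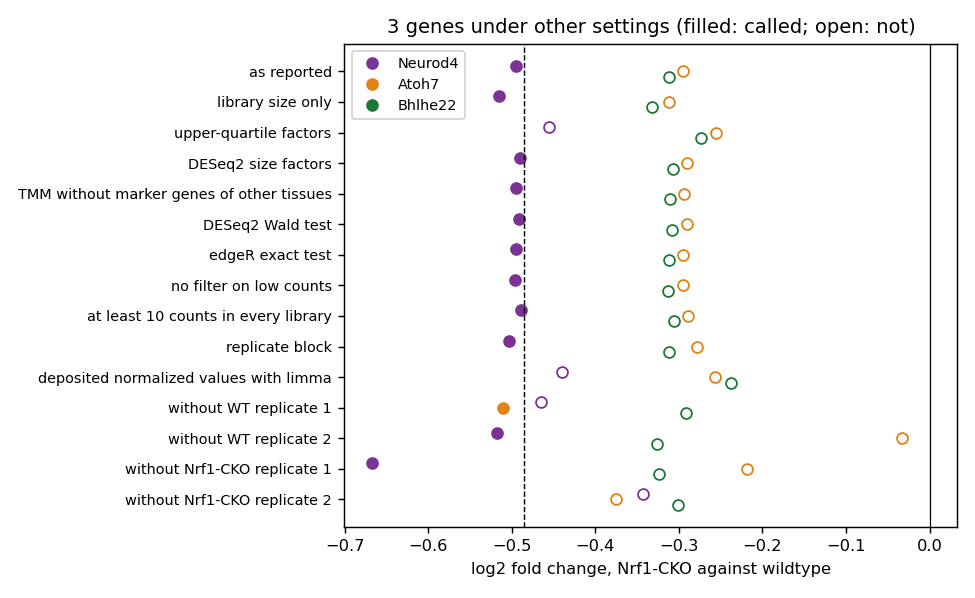
Log2 fold change (x axis, Nrf1-CKO against WT) of *Neurod4*, *Atoh7* and *Bhlhe22* as reported and under alternatives that refit the data (rows), with filled points where the gene was called; the dashed line marks 1.4-fold lower. *Neurod4* lies close to the line in most rows and ranges from -0.67 to -0.34, *Atoh7* ranges from -0.51 to -0.03, and *Bhlhe22* stays between -0.33 and -0.24.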

How the data were processed

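The authors aligned the reads to mm10, counted them per gene with HTSeq and deposited whole-number counts; the submitters' processing notes also name TopHat2 2.7.2, DESeq and limma. The gene annotation and the strand setting are not given in the sources used here. The authors also deposited normalized log2 values, whose method is not given. HTSeq summary entries, 74.0% to 75.0% of all entries, were left out.

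The counts of 15762 genes that passed filterByExpr of edgeR 4.0.16 (R 4.3.3; minimum count 10) were scaled with TMM factors (0.992 to 1.02) and compared between genotypes with the quasi-likelihood test and Benjamini-Hochberg adjustment. Thresholds of 1.4-fold and adjusted p of 0.2 follow the study. It applied them to Cuffdiff, another test, and reported fewer genes in each direction than the 1268 lower and 2024 higher called here. Replicates differed by more than sampling noise. Because nothing says that pools were independent litters, p-values measure the spread between these libraries, and intervals leave out PCR duplication. With 2 libraries per genotype precision is limited. In simulated counts, 78.3% of 198 changed genes, and 95.5% of 133 changed at least 2-fold, were called. So were 29 unchanged genes of 15745 tested. Among genes changed less than 2-fold, where all 6 tested proneural genes lie, the share called was lower and is not given separately.

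The 8 genes, the gene lists and the tests were chosen with earlier results of these data known. Genes named are these 8, the genes of the lists, *Nrf1*, the cell type markers that move with a result, and the 2 genes of at least 5 CPM nearest in pattern to each called member. The result for 1 further listed gene is not reported here, and the counts of its list leave it out. *Cerkl* and *Gm26755* are named for their overlap. Alternatives were other scaling factors, DESeq2 1.42.0, edgeR's exact test and glmTreat, other filters and thresholds, the replicate number as a block, the deposited log2 values with limma 3.58.1, and each library left out in turn. Exons come from GENCODE M21 and start-site windows from RefSeq (GRCm38.p6).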

Additional observations from a re-analysis of the deposited data

How the results depend on the processing

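The log2 fold change of *Neurod4* lay close to the fold limit. *Neurod4* was called in 11 of 17 alternatives, and the direction of its change was the same in all of them. No proneural gene (0 of 6) was called lower with upper-quartile factors (*Neurod4* at -0.46), with glmTreat, at a fold of at least 2, or on the deposited log2 values with limma (-0.44, adjusted p = 0.224 in limma). Over the 4 fits that lack a library the number was 0 to 1, with *Neurod4* called without the second WT library (-0.52) and without the first Nrf1-CKO library (-0.67), *Atoh7* in its place without the first WT library, and neither without the second Nrf1-CKO library. In each of these fits the genotype with 2 libraries gives all of the spread, and the lone library is assumed to vary like it. Over all genes, 743 were lower and 1188 higher with glmTreat, 565 and 1202 at a fold of at least 2, and 669 and 816 on the deposited values, beside 1268 and 2024 as reported. Leaving out each library gave 1071 to 1402 lower and 1703 to 1856 higher. Of the other bHLH genes 3 were lower at a fold of at least 2, and 4 with any library left out. Of partners and inhibitors 0 were lower at a fold of at least 2 and 0 on the deposited values, and 1 to 2 with a library left out. Of targets 0 were higher in both of these settings, and 1 to 2 with a library left out. These settings raise the limit or change the values tested, and the cause of the other differences was not tested.

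Signs changed among the fits that lack a library, where log2 fold changes ranged from -0.22 to 0.04 for *Neurog2*, -0.23 to 0.11 for *Olig2* (0.02 without the first Nrf1-CKO library), -0.13 to 0.33 for *Id1* (-0.03 without the second Nrf1-CKO library), -0.06 to 0.04 for *Id2*, -0.13 to 0.18 for *Dll4* (-0.03 without the second Nrf1-CKO library), -0.09 to 0.03 for *Btg2* (0.0073 without the second WT library) and -0.44 to 0.02 for *Cbfa2t3*. *Id2* was 0.03 and *Btg2* 0.01 with upper-quartile factors, and *Dll4* was -0.0039 with library size only. The difference between replicates correlated at -0.03 between genotypes over 11326 genes. This cannot show whether pools with the same replicate number were prepared together. In 4 of the 6 tested proneural genes, replicate 2 lay above replicate 1 in both genotypes. With the replicate number as a block, *Neurod4* had -0.50 (adjusted p = 0.000955 in edgeR). *Atoh7* had -0.28 (adjusted p = 0.0379 in edgeR) and *Bhlhe22* -0.31 (adjusted p = 0.0468 in edgeR). Both adjusted p were smaller than without the block, but both changes stayed under the fold limit, and no call among the 8 genes changed.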
